A study of Mus musculus with 6 samples.

Results

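RNA of 8 genes for membrane proteins of the lysosome and late endosome was followed through a sort of mouse lung cells on surface Lamp1 protein. The genes were Lamp1, Lamp2, Lamp3 and Lamp5 of the Lamp family, and Cd63, Cd68, Scarb2 and Laptm4a. They were taken by name from a list, and all 8 were found among the 49315 genes of the count table. In both treatments, RNA of Lamp1, Lamp3, Scarb2 and Laptm4a was at least 2-fold higher in Lamp1-enriched than in Lamp1-depleted cells. The same was true of 27.5% of all genes tested in sham-treated mice and of 34.4% in BLM-treated mice. Among the listed genes, Cd68 went the other way in sham-treated mice, at a log2 ratio of -1.57. No condition had a replicate, and genes of endothelial cells and leukocytes also differed between the sorted fractions. After BLM, the unsorted level of 6 of the 7 measurable genes, Lamp1 among them, lay above both sorted fractions, as did 26.4% of all genes, although for Lamp3 the excess over Lamp1-enriched cells was within counting error.

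Lysosomes are bounded by a membrane packed with heavily glycosylated proteins, of which Lamp1 and Lamp2 are the most abundant. These proteins shield the membrane from the hydrolases inside and take part in fusion with autophagosomes and phagosomes. Lamp1 reaches the surface of a cell when lysosomes fuse with the plasma membrane, or when newly made protein passes over the surface on its way to the lysosome. Surface Lamp1 is therefore set by traffic as well as by the amount of RNA, and whether the RNA of Lamp1 and its relatives follows the sort is the question asked of these libraries.

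The libraries came from lungs of male C57BL/6J mice, given as C57BL/6 in the labels. Sham-treated mice, labelled Control, received sterile saline and BLM-treated mice received bleomycin sulfate, both by oropharyngeal instillation, and the labels give neither age nor time after instillation. Several lungs of a group were pooled and dissociated into a suspension of single cells. These were sequenced unsorted or after fluorescence sorting with an antibody to Lamp1 into Lamp1-depleted and Lamp1-enriched cells, with 1 library for each of the 6 conditions and no replicate. Polyadenylated RNA was read, with no selection of a cell type stated other than the sort and the removal of red blood cells. The paper's dissociation protocol includes a lysis step for red blood cells, and its sorting protocol a viability stain.

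Counted reads per library ranged from 30236120 to 52918696, and genes with at least 10 reads from 17870 to 21842. The BLM Lamp1-depleted library stood apart. Of its reads, 38.4% fell on the single gene Gm26917, against 0.884% to 7.10% in the other libraries, and 18636423 reads remained without that gene. Its TMM factor, the scaling that edgeR gives a library, was 0.699, against 0.993 to 1.19. Cell type genes differed between the fractions. The endothelial gene Pecam1 was at 400 and 1908 CPM (read counts per 1000000 reads after TMM scaling) in sham Lamp1-depleted and Lamp1-enriched cells, and at 340 and 2009 CPM after BLM. The leukocyte gene Ptprc was at 2593 and 202 CPM in the same sham fractions, and at 1267 and 173 CPM after BLM. Fewer cells of a type and less RNA per cell cannot be told apart in such libraries.

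Lamp1, the sorted protein, lies on GRCm38 at chr8:13159161-13175338 on the plus strand, and Lamp2 at chrX:38401357-38456454 on the minus strand. Their promoters are shown because transcription factors of the MiT/TFE group, the known regulators of lysosomal genes, bind sequences built around the 6 letters CACGTG. The windows are the RefSeq sequences of build GRCm38.p6, from 250 bases before the start site to 50 bases after it, at chr8:13158911-13159210 on the plus strand and at chrX:38456411-38456710 on the minus strand. Capitals mark each CACGTG, which reads the same on both strands.
Lamp1: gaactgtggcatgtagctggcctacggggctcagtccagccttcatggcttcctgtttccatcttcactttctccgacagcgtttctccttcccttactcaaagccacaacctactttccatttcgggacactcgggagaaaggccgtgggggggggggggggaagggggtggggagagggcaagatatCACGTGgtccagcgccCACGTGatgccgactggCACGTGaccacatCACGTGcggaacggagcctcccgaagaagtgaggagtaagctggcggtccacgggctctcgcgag
Lamp2: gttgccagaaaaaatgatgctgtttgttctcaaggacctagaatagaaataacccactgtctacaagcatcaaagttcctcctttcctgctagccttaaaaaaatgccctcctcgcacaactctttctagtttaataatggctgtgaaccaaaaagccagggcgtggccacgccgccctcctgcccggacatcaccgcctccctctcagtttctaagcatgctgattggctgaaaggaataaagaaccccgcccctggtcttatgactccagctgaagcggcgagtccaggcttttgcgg
The Lamp1 window held 4 copies of CACGTG, which did not overlap and began at positions -61, -45, -28 and -15 from the start site. The Lamp2 window held 0. Among the 9 promoter windows of the 8 genes, the Lamp1 window was alone in holding the letters. The RefSeq windows of Cd63, Scarb2 and Laptm4a do not hold the gene start of the annotation used for coordinates, so their counts of 0 cover the RefSeq start sites only. Of all 32851 promoter windows of this length, 7.15% held at least 1 copy and 8 windows, or 0.0244%, held at least 4. These are matches of letters, not measured binding.

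Lamp1 was read 15493, 6664 and 22587 times in unsorted, depleted and enriched sham cells, which gave 319, 146 and 491 CPM. In the BLM libraries it was read 19777, 2344 and 20594 times, or at 501, 111 and 378 CPM in the same order. Both Lamp1-depleted libraries were thus the lowest, and the highest levels, in BLM unsorted and sham Lamp1-enriched cells, were close to each other. On the log2 scale, Lamp1 was higher by 1.75 in Lamp1-enriched than in Lamp1-depleted cells of sham-treated mice (95% interval 1.71 to 1.79) and by 1.77 in those of BLM-treated mice (1.71 to 1.83). These intervals, here and below, are exact ones for the share of reads. Those of a difference of sort ratios are normal approximations from the read counts. Both kinds cover counting error only, not differences between mice. The sort ratio of BLM less that of sham was 0.02, with an interval of -0.05 to 0.09, while the same difference over 20463 genes had a median of 0.22 and ran from -1.74 at the 5th to 2.61 at the 95th percentile. This closeness depended on the scaling, for the sham and BLM ratios were 1.57 and 2.33 when scaled by total counts, and 1.76 and 1.62 with DESeq2 size factors.

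The sort of Lamp1 RNA was not extreme among all genes. In sham cells 17.9% of the genes tested had a higher ratio than Lamp1, and in BLM cells 22.0%. Against unsorted cells the treatments parted. Lamp1-enriched cells were higher than unsorted cells by 0.62 in sham mice (interval 0.59 to 0.65), and after BLM their log2 ratio was -0.41 (-0.44 to -0.38). Grtp1, a protein-coding gene on the opposite strand, shares 249 exon bases with Lamp1. Its reads came to between 1.75% and 10% of those of Lamp1, and without the strand setting of the counting, reads of the shared stretch cannot be assigned.

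**Figure D1:**
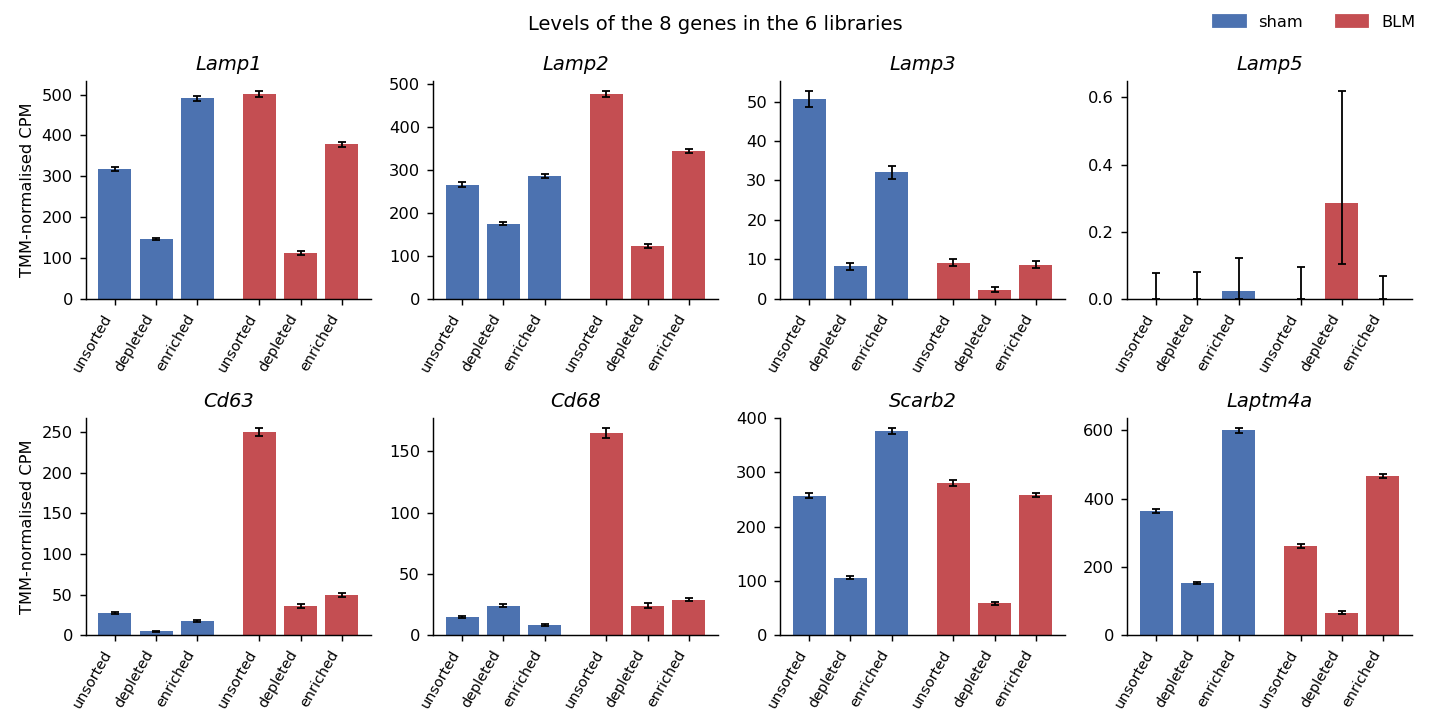
Levels of the 8 genes in the 6 libraries, in TMM-normalised CPM on axes that start at 0, with sham libraries in blue and BLM libraries in red. Each bar is 1 library and error bars are exact 95% Poisson intervals of the read count. Lamp1 was lowest in both Lamp1-depleted libraries, at 146 and 111 CPM, and Cd63 and Cd68 were highest in BLM unsorted cells, at 250 and 165 CPM.

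Lamp2, the close relative of Lamp1 whose isoforms serve in autophagy and in the uptake of proteins by lysosomes, was at 266, 174 and 286 CPM in unsorted, depleted and enriched sham cells. After BLM it was at 476, 123 and 344 CPM. Its lowest levels were again in the Lamp1-depleted libraries, but in sham mice the fractions lay closer together than for Lamp1. The log2 ratio of Lamp1-enriched over Lamp1-depleted cells was 0.71 in sham (0.67 to 0.75) and 1.48 after BLM (1.42 to 1.54), a difference of 0.76 (0.69 to 0.84). Read for read within a library, which needs no scaling, Lamp2 gave 1.19 reads per Lamp1 read in sham Lamp1-depleted cells and 0.583 in sham Lamp1-enriched cells. After BLM these were 1.11 and 0.910.

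Lamp3, known as DC-LAMP, marks mature dendritic cells in humans and, in mice, the lamellar bodies of alveolar type 2 cells. It was at 50.6, 8.18 and 32.1 CPM in unsorted, depleted and enriched sham cells, and at 9.18, 2.32 and 8.66 CPM in the BLM libraries. All 3 BLM levels were below those of the same fraction in sham mice. The log2 sort ratio was 1.97 (1.81 to 2.14) in sham and 1.90 (1.47 to 2.36) after BLM, which rested on 49 reads in the BLM Lamp1-depleted library. The difference of -0.08 had an interval of -0.53 to 0.38 and was not detectable at this depth. The 6 alveolar type 2 markers, surfactant genes among them, summed to 1393, 239 and 1018 CPM in the sham fractions and to 361, 144 and 322 CPM after BLM. The 6 dendritic cell markers summed to between 215 and 556 CPM and did not share 1 direction in the sort. In sham 3 of them were higher and 3 lower by 2-fold, and after BLM 3 were higher and 2 lower. No marker of either list was at 0, and their part in the Lamp3 values was not tested.

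Lamp5, a member known from neurons and from human plasmacytoid dendritic cells, had 0 reads in 4 libraries, 1 read in sham Lamp1-enriched cells and 6 reads in BLM Lamp1-depleted cells. It stayed under the minimum of 10 reads and entered no comparison, which left 7 genes. In unsorted sham cells, the limit that a count of 0 allows, set at 3 reads, was 0.0618 CPM.

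Scarb2, also called LIMP-2, carries the enzyme glucocerebrosidase to the lysosome. It was at 257, 106 and 376 CPM in unsorted, depleted and enriched sham cells, and at 280, 58.8 and 258 CPM after BLM. Its order over the sham fractions was that of Lamp1, and its reads per Lamp1 read were 0.727 in depleted and 0.765 in enriched sham cells, with overlapping counting intervals. After BLM they were 0.530 (0.494 to 0.568) and 0.683 (0.669 to 0.698), with intervals apart. The log2 sort ratio was 1.82 (1.78 to 1.87) in sham and 2.13 (2.05 to 2.22) after BLM, a difference of 0.31 (0.22 to 0.41).

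Laptm4a, which crosses the late endosomal and lysosomal membrane several times, was at 363, 152 and 599 CPM in the sham and at 260, 66.6 and 465 CPM in the BLM libraries. It was the one gene with its highest level in Lamp1-enriched cells in both treatments. The log2 sort ratio was 1.98 (1.94 to 2.01) in sham and 2.80 (2.73 to 2.88) after BLM, a difference of 0.83 (0.74 to 0.91). After BLM, 12.0% of all genes tested had a higher ratio. Relative to unsorted cells, Lamp1-enriched cells were higher by 0.72 in sham and by 0.84 after BLM.

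Cd63, a tetraspanin of late endosomes that also sits in platelet granules, was at 27.7, 4.85 and 17.4 CPM in sham and at 250, 36.3 and 49.7 CPM in BLM cells, in the order unsorted, depleted and enriched. Each BLM level was above that of the same fraction in sham mice. The log2 sort ratio was 1.84 (1.63 to 2.06) in sham and 0.45 (0.34 to 0.57) after BLM, a difference of -1.39 (-1.63 to -1.14). A pseudogene, Cd63-ps, held from 3 to 51 reads, at most 1.81% of those of Cd63, and reads shared with it are uncertain. The 6 platelet markers, Pf4 and Itga2b among them, summed to 40.3 CPM in sham Lamp1-depleted and 956 CPM in sham Lamp1-enriched cells, and to 13.8 and 138 CPM after BLM. No platelet marker was at 0 in these libraries, and the part of platelet RNA in the Cd63 values was not tested.

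Cd68, or macrosialin, is the Lamp family relative found mainly in macrophages. It was at 14.9, 24.2 and 8.13 CPM in unsorted, depleted and enriched sham cells, so that in sham mice the Lamp1-depleted fraction was the highest. After BLM it was at 165, 24.3 and 29.1 CPM, with the unsorted library far above both sorted ones. The log2 sort ratio was -1.57 (-1.75 to -1.40) in sham and 0.26 (0.12 to 0.41) after BLM, the latter between 0.11 and 0.82 under the other scalings. Within libraries, Cd68 gave 0.165 reads per Lamp1 read in sham Lamp1-depleted cells against 0.0166 in sham Lamp1-enriched cells, and 0.219 against 0.0771 after BLM. Relative to Lamp1, Cd68 was thus lower in the Lamp1-enriched fraction of both treatments.

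**Figure D2:**
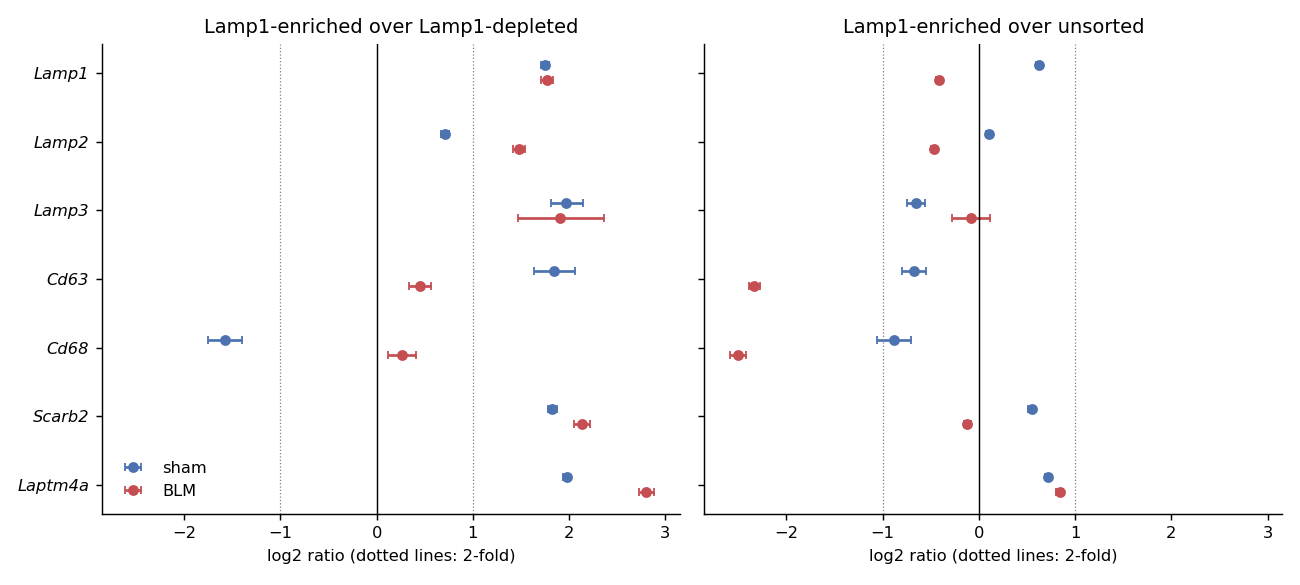
Log2 ratios of Lamp1-enriched over Lamp1-depleted cells (left) and over unsorted cells (right) for the 7 measurable genes, with sham in blue and BLM in red. Points are ratios between 2 libraries, bars are 95% counting intervals and dotted lines mark 2-fold. Lamp1 had sort ratios of 1.75 and 1.77 under this TMM scaling, against 1.57 and 2.33 by total counts, while Cd68 lay at -1.57 in sham and 0.26 in BLM.

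Counted at a threshold of 2-fold, 5 of the 7 genes were higher in sham Lamp1-enriched than in sham Lamp1-depleted cells and 1, Cd68, was lower. Of all 21867 genes tested there, 27.5% were higher and 25.2% lower by as much. Those 5 were Lamp1, Lamp3, Cd63, Scarb2 and Laptm4a. After BLM, 5 of 7 were higher, with Lamp2 in and Cd63 out at 0.45, and 0 were lower, against 34.4% and 22.6% of all genes. Cd63 passed 2-fold after BLM when scaled by total counts, at 1.01, which made 6 of 7, and was at 0.30 with DESeq2 size factors. The median log2 ratio of the 7 genes was 1.82 in sham and 1.77 after BLM, beside -0.01 and 0.29 for all genes tested. The choice of scaling moved every log2 ratio of the BLM pair by between -0.15 and 0.56, and those of the sham pair by between -0.17 and 0.01, so that both treatments kept the direction of all 7 genes under each scaling.

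**Figure D3:**
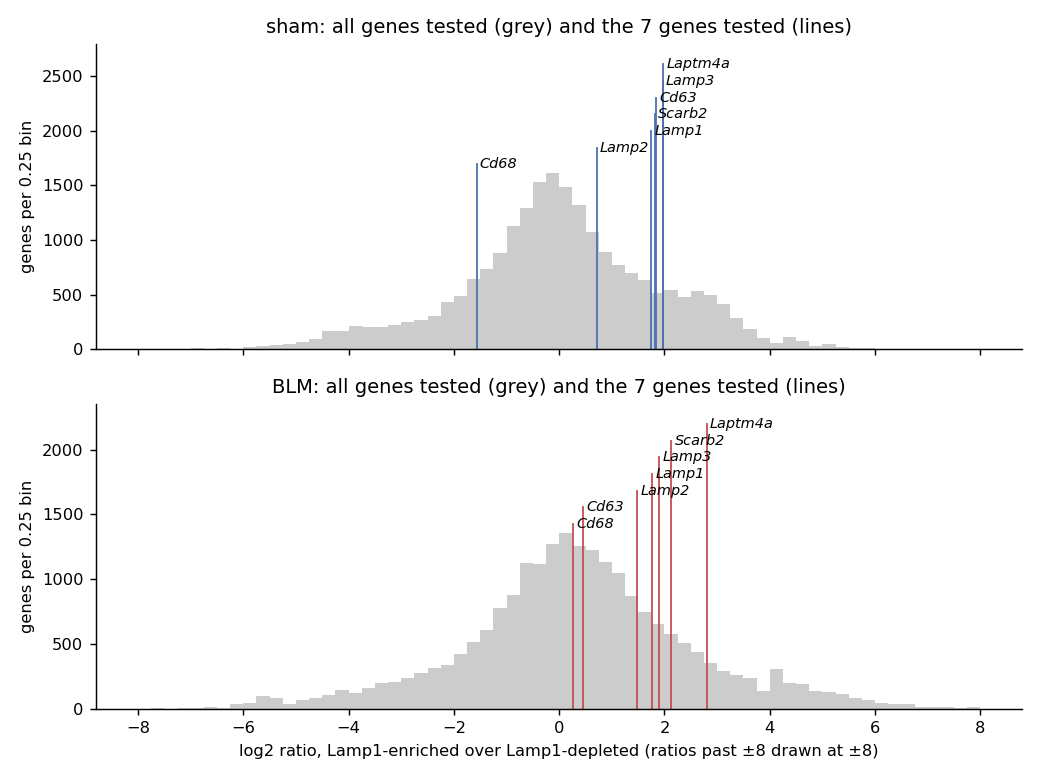
Distribution of the log2 ratio of Lamp1-enriched over Lamp1-depleted cells over all genes tested (grey, genes per bin) for sham (top) and BLM (bottom), with the 7 measurable genes as coloured lines. In sham, 5 genes stood together between 1.75 and 1.98 with Lamp2 at 0.71 and Cd68 at -1.57, and in BLM the genes spread from 0.26 to 2.80.

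The sort was tested over both treatments at once, since within 1 treatment there is no replicate. With treatment as a block, and 1 residual degree of freedom, the edgeR quasi-likelihood test on the 4 sorted libraries called 6 of the 7 genes higher in Lamp1-enriched cells and 0 lower, at a Benjamini-Hochberg adjusted p under 0.05. It called 21.5% of 20593 genes higher and 19.2% lower. Laptm4a had a fitted log2 ratio of 2.29 (adjusted p = 9.94e-08), Scarb2 of 1.88 (3.89e-06) and Lamp3 of 1.85 (2.66e-05). Lamp1 had 1.66 (8.98e-05), Cd63 1.04 (0.0124) and Lamp2 1.0 (0.0214). Cd63 was called with sort ratios of 1.84 in sham and 0.45 after BLM, a disagreement to which the test, with its pooled spread, gave no weight. Cd68, at -0.75, did not pass (adjusted p = 0.0896) and was the 1 gene lower at an unadjusted p under 0.05. The DESeq2 Wald test also called 6 of the 7 higher and 0 lower, and over all genes 3982 higher and 3424 lower. Under other tools and models the adjusted p of Lamp1 lay between 6.39e-07 with the DESeq2 Wald test and 0.131 in the quasi-likelihood test without a treatment term and without the sham Lamp1-enriched library.

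These calls depended on the scaling and on single libraries. Scaled by total counts only, 2872 genes were called higher and 1564 lower, in place of 4422 and 3964, and of the 7 genes Lamp3, Scarb2 and Laptm4a stayed called. In the fit to all 6 libraries Lamp2 missed the threshold (adjusted p = 0.0513). With no treatment term, Lamp1, Scarb2 and Laptm4a stayed called. With 1 library left out as well, the number called was 4 without sham Lamp1-depleted cells, 3 without BLM Lamp1-depleted cells, 3 without BLM Lamp1-enriched cells and 1, Laptm4a, without sham Lamp1-enriched cells. Laptm4a was called in every one of these fits.

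Against unsorted cells the enriched fraction differed less. In sham mice 0 of 7 genes were higher by 2-fold in Lamp1-enriched than in unsorted cells and 0 were lower, against 2.55% and 15.8% of all genes. Lamp1, Scarb2 and Laptm4a were higher by 0.55 to 0.72 on the log2 scale, while Lamp3, Cd63 and Cd68 had ratios of -0.65, -0.67 and -0.88. Lamp2, at 0.11, turned to -0.12 when scaled by total counts. After BLM 0 of 7 were higher by 2-fold and 2 were lower, against 12.6% and 19.1% of all genes. Those 2 were Cd63 at -2.33 (-2.39 to -2.27) and Cd68 at -2.50 (-2.58 to -2.42). Over the 7 genes the median was 0.11 in sham and -0.41 after BLM, beside -0.03 and 0.04 for all genes.

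In Lamp1-depleted cells most of the RNAs were lower than in unsorted cells. In sham mice 5 of 7 genes were lower by 2-fold and 0 were higher, against 30.4% and 18.3% of all genes, with Lamp1 at -1.13, Scarb2 at -1.27, Laptm4a at -1.26, Cd63 at -2.51 and Lamp3 at -2.63. Cd68 was higher, by 0.69 (0.56 to 0.83). After BLM 7 of 7 were lower by 2-fold and 0 higher, against 33.6% and 16.9% of all genes, from -1.95 for Lamp2 to -2.79 for Cd63, with Lamp1 at -2.18. The medians were -1.26 in sham and -2.18 after BLM, beside -0.03 and -0.34 for all genes.

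The level of each unsorted library was set beside those of its fractions, to see for which genes it lay between them. In sham mice this held for 5 of 7 genes and for 52.2% of all genes, and Lamp3 and Cd63 lay above both fractions, as did 25.7% of all genes. After BLM it held for 1 of 7, Laptm4a, and for 55.6% of all genes. The other 6 lay above both sorted fractions, as did 26.4% of all genes. For Lamp3 the unsorted and Lamp1-enriched BLM levels did not differ beyond counting error, at a log2 ratio of -0.08 (-0.28 to 0.12). For Lamp1 the unsorted BLM library was at 501 CPM, above 378 CPM in Lamp1-enriched cells. The macrophage lists were also highest in the unsorted BLM library. The 8 markers of monocytes and interstitial macrophages, such as Csf1r and C1qa, summed to 1056 CPM in BLM unsorted cells, 234 in Lamp1-depleted and 217 in Lamp1-enriched cells. For alveolar macrophages 5 of 6 markers were found, and they summed to 1941, 162 and 219 CPM, with Fabp1 at 0 in both sorted BLM libraries. In the sham libraries the first list summed to 200, 196 and 164 CPM and the second to 379, 118 and 101 CPM. Their part in the levels of Cd63, Cd68 and Lamp1 was not tested.

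BLM and sham were then compared within each fraction. In unsorted cells 2 of 7 genes were higher by 2-fold after BLM and 1 lower, against 13.9% and 16.0% of all genes. Cd68 was higher by 3.46 (3.35 to 3.58) and Cd63 by 3.17 (3.09 to 3.26), ratios exceeded by 0.992% and 1.30% of the genes tested, and Lamp3 was at -2.46 (-2.63 to -2.30). Lamp1 and Lamp2 were higher by 0.65 and 0.84, while Scarb2, at 0.12, turned to -0.14 when scaled by total counts.

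In Lamp1-depleted cells 1 of 7 genes was higher and 2 were lower, against 13.7% and 22.3% of all genes. Cd63 was higher by 2.90, and Lamp3 and Laptm4a were at -1.81 and -1.19. Cd68 was at 0.01 there (-0.14 to 0.16), and turned to -0.71 when scaled by total counts, under which 5 of 7 genes were lower. In Lamp1-enriched cells 2 were higher and 1 lower, against 10.2% and 7.81% of all genes. Cd68 was higher by 1.84 and Cd63 by 1.51, and Lamp3 was at -1.89. Lamp1 itself was at -0.38 (-0.41 to -0.35), so that its level was lower in the BLM than in the sham Lamp1-enriched library, and Lamp2 was higher by 0.26. The medians of the 7 genes were 0.65, -0.50 and -0.36 in unsorted, depleted and enriched cells, beside -0.07, -0.21 and -0.00 for all genes.

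**Figure D4:**
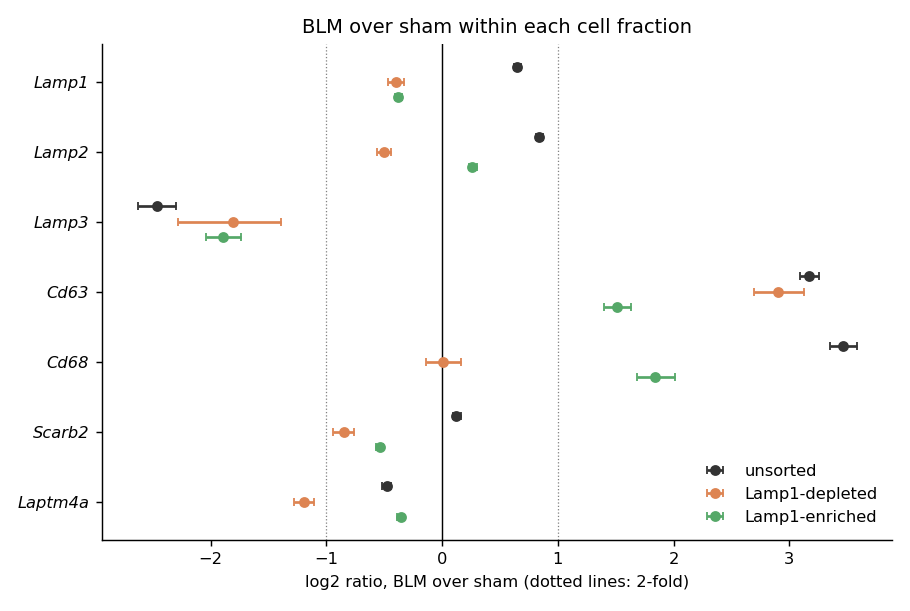
Log2 ratios of BLM over sham for the 7 measurable genes in unsorted (black), Lamp1-depleted (orange) and Lamp1-enriched cells (green), with 95% counting intervals and dotted lines at 2-fold. Cd63 was higher after BLM in all 3 fractions, from 1.51 to 3.17, and Lamp3 lower in all 3, from -2.46 to -1.81.

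Levels of different genes were set side by side per kilobase of exons. In sham unsorted cells the order was Laptm4a at 205 CPM per kilobase, Lamp1 at 119, Scarb2 at 40.9, Lamp2 at 27.8, Lamp3 at 15.1, Cd68 at 11.9 and Cd63 at 7.53. In BLM unsorted cells it was Lamp1 at 187, Laptm4a at 147, Cd68 at 131, Cd63 at 67.9, Lamp2 at 49.8, Scarb2 at 44.5 and Lamp3 at 2.73. Cd68 thus stood beside Laptm4a in the BLM lung suspension and far below it in the sham one. Among neighbours in these orders, Cd68 at 19.2 and Lamp2 at 18.3 in sham Lamp1-depleted cells had overlapping counting intervals, as did Cd63 at 9.85 and Scarb2 at 9.35 in BLM Lamp1-depleted cells. All exons of a gene were counted in its length, so that genes with long alternative ends, such as Lamp2 with 9552 exon bases, come out low on this scale.

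The genes with the pattern most like each of the 7 were found by the root mean square difference of centred log2 CPM over the 6 libraries, among 9935 genes with at least 100 reads in every library. Nearest to Lamp1 were Klhl9, Rab31 and Mcfd2 at 0.17 and Mdfic and Ppt2 at 0.18. Of the list itself Scarb2 lay at 0.23 from Lamp1, at rank 18 of all genes, and Lamp2 at 0.33, at rank 138. Laptm4a lay at 0.50, while Cd68 and Cd63 were at 1.46 and 1.47, farther than 88.7% and 89.1% of the genes. Nearest to Lamp2 were Tmem165, Plin3 and Nampt, to Scarb2 Klhl9, Mdfic and Sqor, and to Laptm4a E2f6, Wls and Nck1. Cd68 had the Fc receptor gene Fcgr3, the chemokine gene Ccl9 and Mpeg1 nearest, all known from macrophages, and Cd63 had Sh3pxd2b, Mmp19 and Anpep. Lamp3 and Lamp5 were under the read minimum of this comparison.

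Other lists of lysosomal genes are given with their own counts and medians. Among 27 transporters and channels, 1 was higher by 2-fold and 6 were lower in sham Lamp1-enriched than in Lamp1-depleted cells, at a median of -0.22, and after BLM 2 were higher and 8 lower, with a median of -0.52. Of all genes, 27.5% were higher and 25.2% lower in sham, and 34.4% and 22.6% after BLM, so that the share of transporters that were lower in sham was near that of all genes. The edgeR quasi-likelihood test called 0 of 27 higher and 8 lower, with 1 higher and 9 lower at an unadjusted p under 0.05, and the DESeq2 Wald test called 0 higher and 7 lower. Of all genes the first test called 21.5% higher and 19.2% lower, and the Wald test called 3982 genes higher and 3424 lower. The share of all genes at an unadjusted p under 0.05 was not counted. The lowest were the cation channel gene Mcoln2, at -3.88 in sham and -3.66 after BLM, Slc11a1, a metal transporter of phagocytes, at -2.12 and -2.40, and Sidt2 at -1.79 and -2.0. The highest were the 2-pore channel gene Tpcn1 at 1.05 and 0.56, the sialic acid transporter gene Slc17a5 at 0.13 and 1.01, and Ostm1, the partner of a chloride transporter, at -0.13 and 1.26, of which none passed the quasi-likelihood test.

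Among 17 other lysosomal and late endosomal membrane proteins, 6 were higher and 5 lower in sham, with a median of 0.57, and 8 were higher and 4 lower after BLM, with a median of 0.92. The shares of all genes were again 27.5% higher and 25.2% lower in sham and 34.4% and 22.6% after BLM. Of the 17 the test called 7 higher and 5 lower, against 21.5% and 19.2% of all genes. Tetraspanins, the family of Cd63, were among the highest and the lowest of the list. Cd151 was at 2.96 in sham and 3.37 after BLM and Cd9 at 3.0 and 2.27, while Cd37 and Cd53, known from leukocytes, were at -3.86 and -4.86 and at -3.82 and -1.64. The other tetraspanins listed, Cd81 at 0.57 and 1.73 and Cd82 at -2.07 and -1.53, lay between them. The relatives of Laptm4a parted as well, with Laptm4b at 2.28 and 2.51 and Laptm5, a gene of blood cells, at -2.80 and -2.53. Cd151, Cd9, Cd37, Cd53, Laptm4b and Laptm5 passed the quasi-likelihood test in the direction given.

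Lysosomes are carried along microtubules and fuse with the plasma membrane through a set of known proteins, for which 16 genes were listed. In sham 4 were higher and 1 was lower, with a median of 0.57, and after BLM 6 were higher and 3 lower, with a median of 0.50, and the test called 6 higher and 2 lower. Of all genes, 27.5% were higher and 25.2% lower in sham, 34.4% and 22.6% after BLM, and 21.5% and 19.2% in the test, so that the shares of the list higher by 2-fold were near those of all genes. Syt7, the calcium sensor of lysosomal exocytosis, was at 36.2, 6.23 and 50.3 CPM in unsorted, depleted and enriched sham cells and at 20.5, 6.34 and 60.4 CPM after BLM, with sort ratios of 3.01 and 3.25 (adjusted p = 1.33e-14 in edgeR's quasi-likelihood test). Rab27b had ratios of 3.36 and 4.13, and the fusion protein gene Vamp7 of 1.45 and 2.47. Unc13d, which primes the release of cytotoxic granules, was at -1.92 and -3.42, and Vac14, part of the complex around the lipid kinase of lysosomes, at -0.90 and -1.27. Pikfyve, that kinase, was at -0.94 and -0.47 and did not pass the test.

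Of the 4 MiT/TFE genes, whose products bind CACGTG, the sort ratios were -1.30 and -1.65 for Tfeb and 1.46 and 1.06 for Mitf. The test called Tfeb lower and Mitf higher. Of all genes it called 21.5% higher and 19.2% lower, so that 1 of 4 in each direction was near those shares. Tfe3, at 0.11 and 0.12, and Tfec, at 0.25 and 0.34, did not pass. Their median was 0.18 in sham and 0.23 after BLM. The 4 genes did not share 1 direction in the sort.

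**Figure D5:**
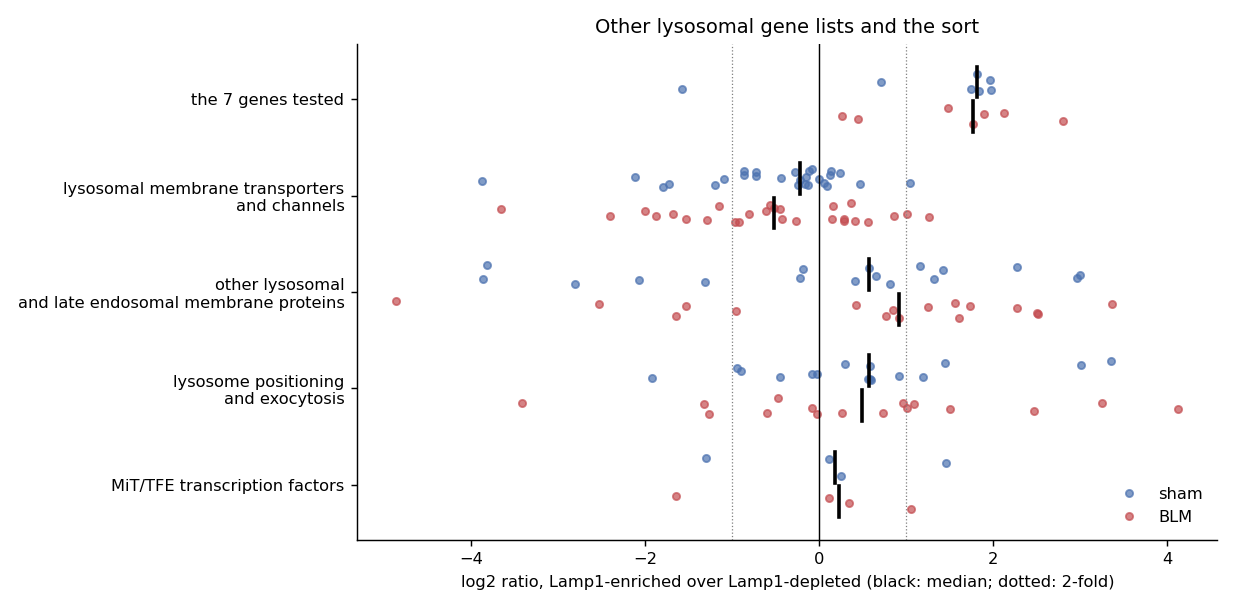
Log2 ratios of Lamp1-enriched over Lamp1-depleted cells for the 7 measurable genes and 4 lists of other lysosomal genes, with sham in blue and BLM in red. Each point is a gene, black bars are list medians, dotted lines mark 2-fold and points are spread vertically so that they can be seen. The 7 genes had medians of 1.82 and 1.77, and the 27 transporters and channels of -0.22 and -0.52.

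The fractions also differed in cell type markers. All 8 endothelial markers were higher by 2-fold in Lamp1-enriched than in Lamp1-depleted cells in both treatments, at a median log2 ratio of 3.0 in sham mice and 3.45 after BLM, and their sum ranged from 893 to 8670 CPM. The fibroblast markers summed to 79.4 and 215 CPM in sham Lamp1-depleted and Lamp1-enriched cells, and to 183 and 934 CPM after BLM. The B cell markers summed to 2655 and 143 CPM in the sham and to 1099 and 55.3 CPM in the BLM fractions, the T cell markers to 452 and 25.0 and to 205 and 13.2 CPM, and the NK cell markers to 127 and 10.6 and to 48.7 and 3.03 CPM. Plasmacytoid dendritic cell markers summed to 248 and 16.1 and to 92.8 and 7.28 CPM, but the 4 markers did not share 1 direction. Their log2 sort ratios ran from -4.19 to 3.47 in sham and from -4.09 to 0.90 after BLM. Neutrophil markers had their highest sum in BLM Lamp1-depleted cells, at 126 CPM, but did not share 1 direction either. Their log2 sort ratios ran from -2.10 to 0.46 in sham and from -2.75 to 0.47 after BLM. Erythroid markers summed to between 31.4 and 522 CPM. A difference in cell type and a difference in RNA per cell were not tested against each other for any of the 8 genes.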

How the data were processed

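The data are raw read counts per gene deposited by the authors for 6 mouse lung libraries, with no normalization applied by them. Per the submitters' processing notes, Trimmomatic 0.36, STAR 2.5.2b, featureCounts, Subread 1.5.2, DESeq2 and build GRCm38 were used. The annotation release and the strand setting of the counting are not given in the sources used here. Groups followed the labels, with 1 library per condition, so that no replicate spread exists within a condition.

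Of 49315 genes, 48970 matched GENCODE release M21 by identifier, which gave coordinates and exon lengths. Promoter sequences came from RefSeq. Levels are read counts per 1000000 reads, scaled by TMM factors over the 6 libraries (edgeR 4.0.16, R 4.3.3). Log2 ratios of 2 libraries were computed after adding 0.5 reads, scaled to the size of each library, where the higher library held at least 10 reads. They carry 95% Clopper-Pearson intervals of the share of reads (Python 3.11.15, numpy 2.4.6, scipy 1.17.1, pandas 2.3.3). They understate the change of genes with few reads. Levels carry exact Poisson intervals, and differences of sort ratios carry normal approximations from the read counts. A ratio past 2-fold is a description and not a test. The quasi-likelihood test (glmQLFit and glmQLFTest) used the 4 sorted libraries with filterByExpr, treatment as a block and Benjamini-Hochberg adjustment over all genes tested. It tests the sort over both treatments, not within either, with sham and BLM libraries standing in as replicates of the sort. With 1 residual degree of freedom its spread is pooled across genes, and a gene's own spread between the treatments got no weight. The labels do not say whether libraries came from separate sorts, so p-values do not measure the spread between sorts or between mice. The programs were tested on simulated data.

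Alternatives were DESeq2 1.42.0 size factors and its Wald test, total counts, TMM without Gm26917 and Gm42418, thinned counts, a prior count of 2, other read minimums and thresholds, all 6 libraries, and fits without the treatment term or without single libraries. The 8 genes, the lists of other lysosomal genes and the marker lists were chosen with earlier results of these data known, from general knowledge. Named list genes are the 3 with the highest and the 3 with the lowest mean sort ratio among those that reached 50 reads in 1 library of each pair. The alveolar macrophage marker Siglecf did not match by name. Pecam1 and Ptprc served as reference genes, and Gm26917, Gm42418, Grtp1 and Cd63-ps were named after their values were seen.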

Additional observations from a re-analysis of the deposited data

Results flagged for a closer look

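Cd68 was flagged because its sort ratio had opposite signs in the treatments. The log2 ratio of Lamp1-enriched over Lamp1-depleted cells was -1.57 in sham-treated mice, from 24.2 and 8.13 CPM in the depleted and enriched fractions, and 0.26 in BLM-treated mice, from 24.3 and 29.1 CPM. The ratio of BLM less that of sham was 1.83, with a counting interval of 1.61 to 2.05. Each treatment had 1 library per fraction, and the difference between treatments was not tested.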

How the results depend on the processing

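The labels give no replicate numbers, so the only block was treatment, which the reported quasi-likelihood test held. A threshold of log2 2 left 0 genes higher and 0 lower in sham enriched over depleted cells, 2 higher in BLM enriched over depleted, 2 and 4 lower in sham and BLM depleted over unsorted, 0 lower in BLM over sham depleted, and 0 higher and 0 lower in BLM over sham enriched cells. A threshold of log2 0.5 gave 3 higher and 3 lower in sham enriched over unsorted, 1 higher in BLM enriched over unsorted, 1 higher in sham depleted over unsorted, 4 higher in BLM over sham unsorted and 2 lower in BLM over sham enriched cells. A minimum of 1 read let Lamp5 in and gave 1 lower in BLM enriched over depleted, 1 higher in sham enriched over unsorted, 1 higher in BLM depleted over unsorted, 2 higher in BLM over sham depleted and 2 lower in BLM over sham enriched cells. Total counts only gave 1 lower in sham enriched over unsorted and 5 lower in BLM over sham depleted cells. The shares of all genes under these other settings were not counted, so these counts have no background beside them.

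In the quasi-likelihood test, total counts only called 2872 genes higher, 1564 lower and 3 of the 7 genes higher, and the fit with no treatment term called 2685, 2392 and 3. Leaving out 1 library from the latter fit called 3898 genes higher and 3543 lower without sham Lamp1-depleted cells, 2865 and 2588 without BLM Lamp1-depleted cells, 1759 and 1369 without sham Lamp1-enriched cells, and 1630 and 983 without BLM Lamp1-enriched cells, with from 1 to 4 of the 7 genes called higher. There a lone library of a fraction was assumed to vary like the others. Cd63 then turned to -0.26 without sham Lamp1-depleted cells (adjusted p = 0.772) and to -0.32 without BLM Lamp1-enriched cells (0.865), and Cd68 to 0.20 without sham Lamp1-enriched cells (0.905). The causes were not tested. Of the other counts, 170 stayed within 1.5 times the value reported. Depth limited Lamp5 and, in BLM Lamp1-depleted cells, Lamp3.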

Other observations

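The lists of other lysosomal genes were also counted for an unsorted BLM level above both sorted BLM fractions. It was seen in 15 of 27 transporters and channels, 9 of 17 other lysosomal and late endosomal membrane proteins, 5 of 16 genes for positioning and exocytosis and 3 of 4 MiT/TFE genes, against 26.4% of all genes, which the share of the positioning and exocytosis list was near. In sham mice the same counts were 6, 2, 2 and 2, against 25.7%. Gpnmb, Sort1 and Tfec were chosen here after their values were seen. Gpnmb, a glycoprotein of lysosome-rich macrophages, was at 483 CPM in BLM unsorted cells and at 40.9 and 54.6 CPM in the Lamp1-depleted and Lamp1-enriched cells. The sorting receptor gene Sort1 was at 539, 49.0 and 117 CPM and the transcription factor gene Tfec at 50.9, 4.40 and 5.56 CPM in the same order. In unsorted cells, BLM over sham gave log2 ratios of 4.77, 2.01 and 2.83 for these 3 genes, and 14 of the 27 transporters and channels were higher by 2-fold with 0 lower, against 13.9% and 16.0% of all genes.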
